A study of Mus musculus with 10 samples.

Results

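A set of 10 genes of insulin signaling and of the insulin-like growth factor (IGF) binding protein family was followed in mouse liver. The set, defined by gene name, holds the receptors *Insr* and *Gcgr*, the adaptors *Irs1* and *Irs2*, the kinase gene *Akt2*, the adaptor *Grb14*, and *Igfbp1*, *Igfbp2*, *Igfbp3* and *Igfbp4*. They are 10 of the 24421 genes in the count table, and all 10 passed the filter on low counts. The livers came from male wild-type C57BL/6 mice (C57BL/6J in the study's methods) aged 21 weeks that ate without restriction. In the Chow group (n = 5) the mice received chow alone, and in the TM5614 group (n = 5) they received TM5614, an inhibitor of plasminogen activator inhibitor-1 (PAI-1), mixed into the chow at 20 mg/kg/day for 10 days. Each library is 1 mouse, and messenger RNA was sequenced. The comparison addressed how hepatic transcripts differ when PAI-1 is inhibited for a short time in otherwise untreated mice.

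Insulin binds its receptor on the hepatocyte, the receptor phosphorylates the insulin receptor substrates, and these recruit phosphoinositide 3-kinase, which leads to activation of AKT2. AKT2 then keeps FOXO1 out of the nucleus, so that gluconeogenic genes and *Igfbp1* are repressed after a meal, while lipogenic genes are induced. Glucagon acts in the opposite direction through its own receptor and cyclic AMP. The IGF binding proteins are secreted proteins that carry IGF-I and IGF-II in plasma and set how much of them is free to reach receptors. Liver makes most of the circulating IGF-I.

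The 10 libraries held from 6398335 to 10874955 counts. Hepatocyte markers dominated both groups: 7 of the 8 listed had rows, summing to 107000 to 124000 CPM (counts relative to the TMM-scaled library total) in Chow and 92900 to 110000 CPM in TM5614, and *Alb* alone lay between 69500 and 98100 CPM in every library. Of these 7 markers edgeR called 0, with 1 at an unadjusted p under 0.05, and DESeq2 and limma-voom each called *Ttr*. Markers of endothelium (8 tested), stellate cells (7), Kupffer cells (8) and cholangiocytes (3) had 0 called genes by edgeR. At an unadjusted p under 0.05 these 4 lists held 1, 1, 0 and 0 genes, and DESeq2 called 0 in each while limma-voom called 1 stellate cell gene, *Dcn*. The estimates of the 8 Kupffer cell markers were all below 0 (median log2 fold change -0.35), with sums of 65.3 to 204 CPM in Chow and 68.3 to 146 CPM in TM5614, and those of the 7 stellate cell markers were all above 0 (median 0.22), with sums of 160 to 288 CPM and 261 to 346 CPM. Of 2 adipocyte markers tested, *Cidec*, a lipid droplet gene that hepatocytes also express, was higher in TM5614 (4.99 ± 1.3 and 27.1 ± 8.14 CPM, log2 fold change 2.43, adjusted p = 0.00034 by edgeR). The other, *Fabp4*, was at 7.63 ± 5.29 CPM in Chow and 17.4 ± 25.5 CPM in TM5614, with a maximum of 62.9 CPM. It was not called (log2 fold change 1.17, adjusted p = 0.395 by edgeR). The defining adipocyte genes *Adipoq*, *Plin1* and *Lep* were at most at 7.4, 1.82 and 0.649 CPM. These maxima and that of *Fabp4* lay in TM5614 replicate 2. The part of these markers in the results was not tested. In bulk tissue, fewer cells of a type and less RNA per cell cannot be told apart. The islet hormone genes *Ins1*, *Ins2* and *Gcg* had no count in any library. A pair of libraries stood apart. For each library, the departure of each gene from that gene's median over the 10 libraries was taken. In Chow replicate 2, gene GC content and transcript length accounted for 46% of the variance of these departures, whereas the other 9 had 0.763% to 11.5%. TM5614 replicate 2 carried 3890 CPM of 10 skeletal muscle markers, against 65.2 CPM in TM5614 replicate 3 and 1.27 to 6.51 CPM in the other 8.

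Per transcript length, the IGF binding proteins spanned nearly the whole range of the set. On the FPKM scale (fragments per kilobase of transcript, scaled to library size, as deposited), *Igfbp4* averaged 1020 ± 165 in Chow and 770 ± 69.5 in TM5614 (SD, n = 5 each), and over all libraries it ranked 73 among 24421 genes. *Igfbp2* followed with 418 ± 169 and 520 ± 129 FPKM, at rank 141. *Gcgr* stood at 102 ± 34.4 and 82.9 ± 6.22 FPKM, and *Igfbp1* at 71 ± 58.9 and 155 ± 75.8 FPKM. A middle tier of *Grb14* (28.2 ± 3.41 in Chow), *Insr* (24.5 ± 6.1) and *Akt2* (19.9 ± 1.27 FPKM) came next, and *Igfbp3* (5.08 ± 1.12), *Irs2* (3.3 ± 1.06) and *Irs1* (3.22 ± 0.683 FPKM) were lowest. The transcript level of *Insr* was thus well above that of *Irs1* or *Irs2*, which encode the main substrates of the receptor. Neighbors in this order were not all separable. In Chow, *Gcgr* exceeded *Igfbp1* in 4 of 5 libraries and *Irs2* exceeded *Irs1* in 2 of 5, with overlapping ranges, and the ranges of *Grb14* with *Insr*, of *Insr* with *Akt2* and of *Igfbp3* with *Irs2* overlapped too. In TM5614 the group means of both first pairs were in the other order, though the Chow means of *Irs2* and *Irs1* were nearly equal. *Igfbp1* exceeded *Gcgr* in 4 of 5 TM5614 libraries, and *Irs1* exceeded *Irs2* in 5 of 5 with no overlap. The ranges of *Igfbp4* with *Igfbp2* and of *Igfbp3* with *Irs1* overlapped in TM5614.

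**Figure D1:**
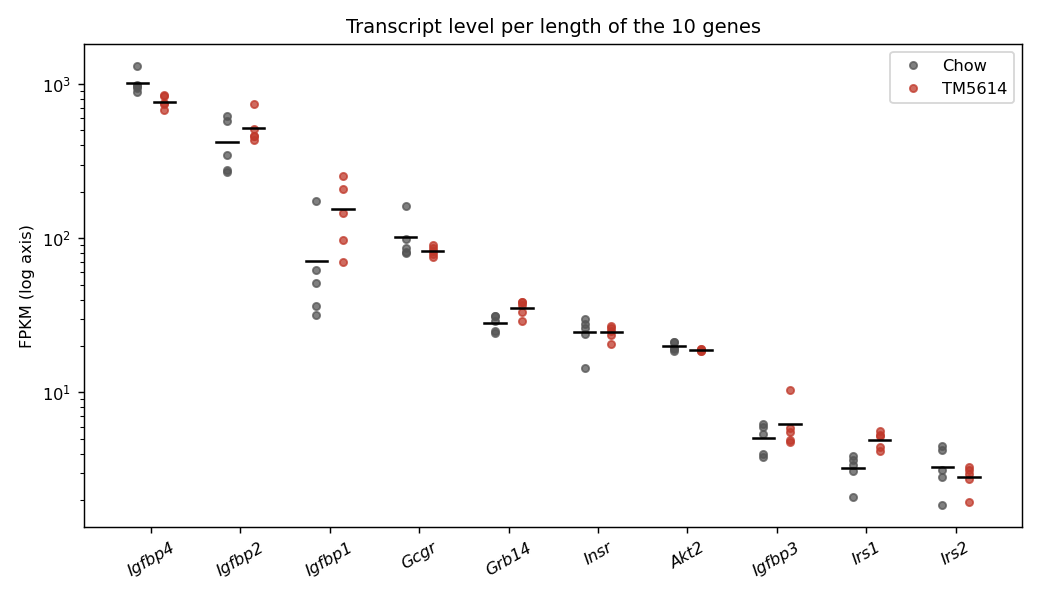
Level of each gene per transcript length (FPKM, log axis) in the 5 Chow (grey) and 5 TM5614 (red) libraries, 1 point per library, with a black line at each group mean. *Igfbp4* and *Igfbp2* lie at the top and *Igfbp3*, *Irs1* and *Irs2* at the bottom, and *Igfbp1* has the widest scatter, from 31.7 to 253 FPKM.

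In the edgeR quasi-likelihood fit, adjusted by the Benjamini-Hochberg method across 11092 genes, 1 of the 10 genes passed an adjusted p of 0.05, *Irs1*, which was higher in TM5614. None passed in the lower direction. Over all genes tested, 4.50% passed in either direction, 1.73% as higher and 2.77% as lower in TM5614. At an unadjusted p under 0.05 the count was 4 of 10 (*Irs1*, *Igfbp1*, *Igfbp4* and *Grb14*), against 20.4% of all genes tested. The groups did not overlap in CPM for 2 of 10 (*Irs1* and *Igfbp4*), against 8.93% of all genes. DESeq2 called 2 of the 10, *Irs1* and *Igfbp4*, and limma-voom called 3, with *Grb14* added, against 8.08% and 12.5% of all genes with these tools. The median log2 fold change of the 10 genes was 0.16, against 0.01 over all genes tested.

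**Figure D2:**
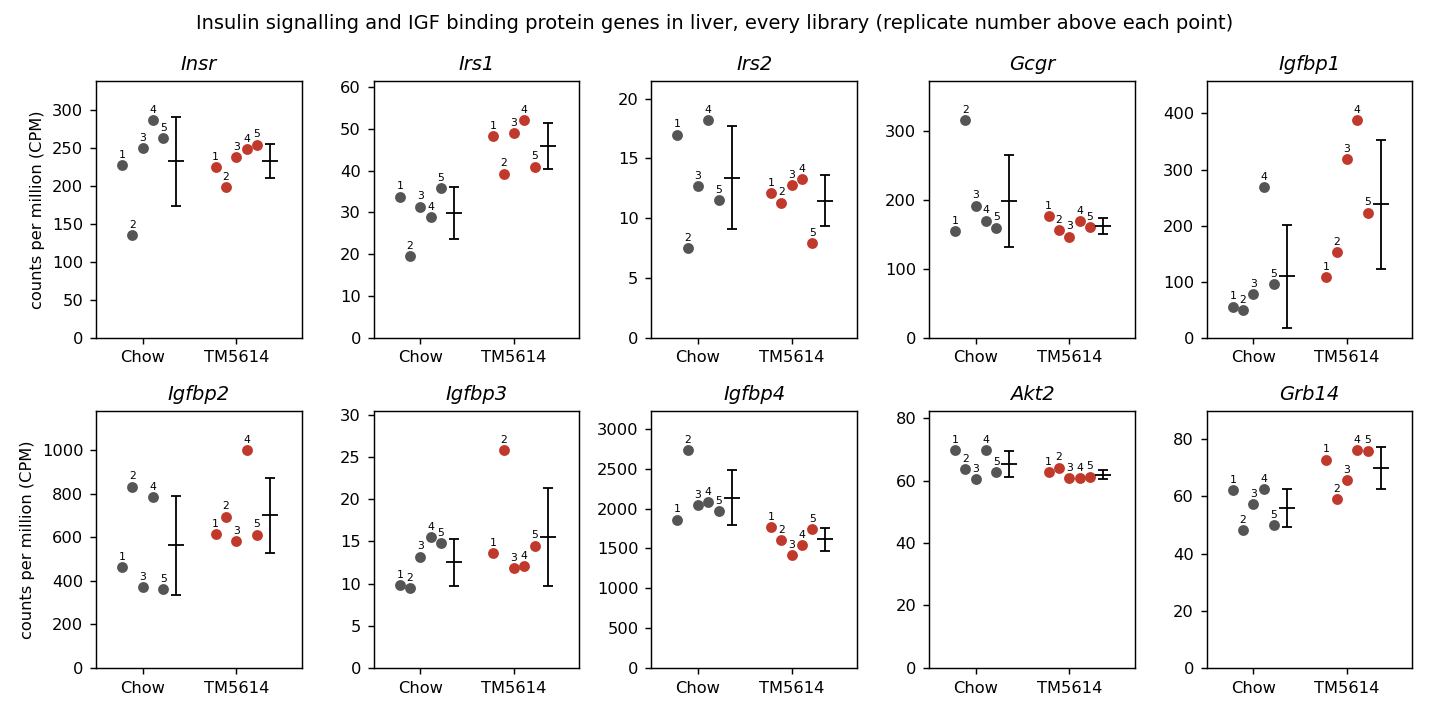
CPM of each gene in every library, with the replicate number above each point and the group mean and SD (n = 5) as a black bar to the right. Chow and TM5614 separate for *Irs1* and *Igfbp4*, single libraries stand off for *Gcgr* (Chow replicate 2, 316 CPM), *Igfbp1* (Chow replicate 4, 269 CPM) and *Igfbp3* (TM5614 replicate 2, 25.8 CPM), and *Akt2* is nearly flat.

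Transcripts of *Insr*, the insulin receptor (chr8:3122061-3279617, minus strand, GENCODE M21 on GRCm38), had the same mean in both groups, 232 ± 58.1 CPM in Chow and 232 ± 22.3 CPM in TM5614. The values were 227, 135, 249, 286 and 262 CPM in Chow replicates 1 to 5, and TM5614 replicates 1 to 5 gave 224, 198, 237, 248 and 254 CPM. Chow replicate 2 was the lowest of all and Chow replicate 4 the highest, and the TM5614 values lay between them. The log2 fold change was 0.00 (SE 0.17, 95% interval -0.38 to 0.38, adjusted p = 0.993 by edgeR), so a difference within that interval in either direction was not excluded. The low value of Chow replicate 2 moved with its composition: after correction for GC content and length it was 224 CPM, and the Chow SD was 27.5 CPM. The log2 fold change was then -0.12 (adjusted p = 0.506 by edgeR), and without that library it was -0.15 (adjusted p = 0.394 by edgeR).

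*Gcgr*, the glucagon receptor (chr11:120530699-120538986, plus strand), averaged 199 ± 67.1 CPM in Chow and 162 ± 11.6 CPM in TM5614. It was at 155, 316, 192, 170 and 160 CPM in Chow replicates 1 to 5, with TM5614 replicates 1 to 5 at 177, 156, 147, 169 and 161 CPM. Apart from Chow replicate 2, the groups covered nearly the same range. The log2 fold change was -0.29 (SE 0.18, 95% interval -0.69 to 0.11, adjusted p = 0.386 by edgeR), and it was -0.07 without Chow replicate 2 and -0.07 after correction for GC content and length, which brought that library to 215 CPM. The ratio of *Insr* to *Gcgr* within a library, from FPKM, was 0.088 in Chow replicate 2 and between 0.26 and 0.346 in the other 9.

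*Irs1* rose in TM5614. It encodes insulin receptor substrate 1, an adaptor that couples the receptor to phosphoinositide 3-kinase (chr1:82233101-82291416, minus strand). Chow replicates 1 to 5 gave 33.8, 19.6, 31.4, 28.8 and 35.8 CPM, and TM5614 replicates 1 to 5 gave 48.2, 39.3, 49, 52.1 and 41 CPM. Every TM5614 value lay above every Chow value, and the gap between TM5614 replicate 2 and Chow replicate 5 was the narrowest. The group means were 29.9 ± 6.33 and 45.9 ± 5.5 CPM, a fold of 1.54 (95% interval 1.21 to 1.95), with a log2 fold change of 0.62 (SE 0.16, adjusted p = 0.0485 by edgeR). The call sat at the threshold. Over 19 alternative settings the log2 fold change stayed between 0.49 and 0.69, and the adjusted p ranged from 0.0039 to 0.136 and was under 0.05 in 10. It exceeded 0.05 without a filter on low counts (0.072) and on leaving out any 1 of Chow replicates 1, 3 and 4 or of the 5 TM5614 libraries. Leaving out Chow replicate 2, the lowest value, gave 0.49 (adjusted p = 0.0127 by edgeR), and correction for GC content and length gave 0.56 (adjusted p = 0.0113 by edgeR). Exons of *Irs1* overlap *Gm9747* on the opposite strand by 2822 bases. *Gm9747* had no row under that name in the count table. Use of strand in counting is not given in the sources used here, so reads of the pair cannot be told apart.

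The 250 bases before the *Irs1* start are shown because it was the gene called (RefSeq, GRCm38.p6, chr1:82291440-82291689, minus strand, 5′ to 3′). Capitals mark matches to the motifs searched on both strands, which were TGTTTAC (the FOXO core), CAAAACA and CAAAATA (the paired elements of the insulin response sequence) and TGACG (the core of a cyclic AMP response element).
Irs1: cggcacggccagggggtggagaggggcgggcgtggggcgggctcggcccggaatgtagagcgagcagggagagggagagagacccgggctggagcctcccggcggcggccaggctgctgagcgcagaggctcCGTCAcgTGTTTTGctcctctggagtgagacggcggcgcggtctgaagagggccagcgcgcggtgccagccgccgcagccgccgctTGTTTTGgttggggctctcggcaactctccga
The window held CAAAACA at 2 places on the reverse strand (first bases at -111 and -32 from the start) and TGACG once (-118). Among 32851 promoter windows of 300 bases in the RefSeq table, 6.28% held CAAAACA and 20.8% held TGACG. These matches are letters in a window and were not tested as binding sites.

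*Irs2*, the other main substrate of the hepatic insulin receptor (chr8:10984681-11008458, minus strand), was at 17, 7.52, 12.7, 18.2 and 11.5 CPM in Chow replicates 1 to 5 and at 12.1, 11.3, 12.8, 13.3 and 7.9 CPM in TM5614 replicates 1 to 5. The TM5614 values lay inside the Chow range. The means were 13.4 ± 4.32 and 11.5 ± 2.13 CPM, and the log2 fold change of -0.22 (SE 0.23, 95% interval -0.72 to 0.29, adjusted p = 0.615 by edgeR) did not exceed the spread. It was -0.37 without Chow replicate 2 and -0.14 after correction for GC content and length, with no call in either. Set against *Irs1* within the same library, the ratio of *Irs2* to *Irs1* FPKM was 1.15, 0.878, 0.926, 1.44 and 0.734 in Chow and 0.571, 0.656, 0.599, 0.581 and 0.441 in TM5614. No TM5614 library reached the lowest Chow ratio. This ratio has *Irs1*, the called gene, as its denominator, so it is no independent result, and it was not tested.

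*Akt2*, the serine/threonine kinase that carries most of the hepatic insulin signal (chr7:27591552-27640826, plus strand), was the steadiest of the set. Chow libraries ran from 60.6 to 69.7 CPM and TM5614 libraries from 60.7 to 64.2 CPM. The means were 65.3 ± 4.21 and 61.9 ± 1.55 CPM. The log2 fold change was -0.08 (SE 0.09, adjusted p = 0.649 by edgeR), and its 95% interval of -0.27 to 0.12 was the narrowest of the 10 genes. Its dispersion relative to the trend of genes of like abundance was at percentile 3.92 of all genes tested.

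*Grb14* encodes an adaptor that binds the activated insulin receptor and inhibits its kinase (chr2:64912476-65024987, minus strand). There were 62.2, 48.1, 57.2, 62.6 and 49.9 CPM in Chow replicates 1 to 5, and TM5614 replicates 1 to 5 gave 72.9, 59, 65.6, 76.1 and 76 CPM. TM5614 replicate 2 lay within the Chow range and the other 4 TM5614 libraries lay above it. The means were 56 ± 6.77 and 69.9 ± 7.43 CPM, and the log2 fold change was 0.32 (SE 0.12, 95% interval 0.06 to 0.58, adjusted p = 0.154 by edgeR). It did not pass the threshold by edgeR, while limma-voom called it (0.31, adjusted p = 0.04), as did the edgeR fit without both libraries that stood apart (0.33, adjusted p = 0.0383). After correction for GC content and length, which moved Chow replicate 2 from 48.1 to 76.6 CPM, the log2 fold change was 0.11 (adjusted p = 0.63 by edgeR), and without that library it was 0.27 (adjusted p = 0.127 by edgeR). The correction took that library from the lowest value to the highest. The remaining corrected values were 51.3 to 65.7 CPM in Chow and 58.3 to 75.1 CPM in TM5614. Whether the library was overcorrected was not tested.

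**Figure D3:**
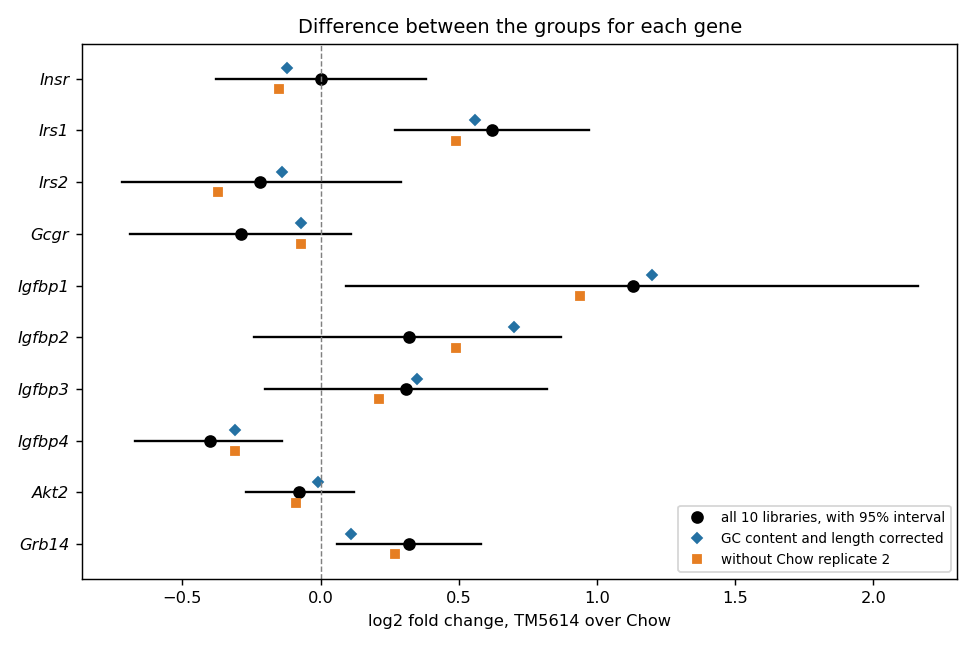
Log2 fold change of TM5614 over Chow for each gene: black points and lines are the edgeR estimate and 95% interval over all 10 libraries, blue diamonds the estimate after correction for GC content and length, and orange squares the estimate without Chow replicate 2. The interval of *Igfbp1* (0.09 to 2.16) is the widest, and *Insr*, *Gcgr*, *Igfbp2* and *Grb14* shift most with the correction.

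*Igfbp1* had the largest estimate and also the largest scatter. It encodes an IGF binding protein of hepatic origin whose transcription insulin represses and fasting raises (chr11:7197782-7202546, plus strand), and it lies beside *Igfbp3* (chr11:7206086-7213923, minus strand). Chow replicates 1 to 5 were at 55.4, 48.8, 78.1, 269 and 95.4 CPM, and TM5614 replicates 1 to 5 at 108, 152, 318, 388 and 223 CPM. The 5 TM5614 libraries lay above 4 of the 5 Chow libraries. Chow replicate 4 lay within the TM5614 range, above 3 of its 5 libraries. The means were 109 ± 91.2 and 238 ± 116 CPM, and the log2 fold change was 1.13 (SE 0.48, 95% interval 0.09 to 2.16). With 5.52-fold between the highest and lowest Chow library and 3.59-fold in TM5614, the difference did not pass (adjusted p = 0.211 by edgeR). Its dispersion relative to trend was at percentile 99.5 of all genes tested. Without Chow replicate 4 the log2 fold change was 1.77 (adjusted p = 0.0249 by edgeR). Over the 19 alternatives the log2 fold change ranged from 0.88 to 1.77 and the adjusted p from 0.0115 to 0.403, and 2 of them passed.

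The 250 bases before the *Igfbp1* start are shown because this promoter is the textbook example of an insulin response sequence (RefSeq, GRCm38.p6, chr11:7197537-7197786, plus strand, 5′ to 3′), with matches to the same motifs in capitals.
Igfbp1: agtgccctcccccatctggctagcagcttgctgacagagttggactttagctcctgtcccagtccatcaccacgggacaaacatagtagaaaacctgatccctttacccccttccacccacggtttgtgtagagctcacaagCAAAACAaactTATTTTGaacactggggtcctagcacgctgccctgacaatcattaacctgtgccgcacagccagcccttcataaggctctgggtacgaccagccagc
It held CAAAACA on the forward strand at -108 and CAAAATA on the reverse strand at -97, so that the paired elements face each other. Both motifs together occurred in 0.472% of the 32851 windows, and CAAAATA alone in 4.36%. Of the 9 members with a window in the table, *Irs1* and *Irs2* also held CAAAACA, none other held CAAAATA, and none held TGTTTAC, which 3.65% of all windows held. Absence of these letters from a window says nothing of the factor elsewhere.

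*Igfbp2*, another hepatic IGF binding protein (chr1:72824503-72852474, plus strand), was at 463, 832, 372, 782 and 361 CPM in Chow replicates 1 to 5 and at 615, 694, 580, 998 and 612 CPM in TM5614 replicates 1 to 5. Chow replicates 2 and 4 lay well above the other 3, and all TM5614 libraries lay above those 3. The means were 562 ± 228 and 700 ± 172 CPM, with a log2 fold change of 0.32 (SE 0.26, 95% interval -0.24 to 0.87, adjusted p = 0.5 by edgeR). The estimate moved with the correction for GC content and length and with single libraries. The correction took *Igfbp2* in Chow replicate 2 from 832 to 409 CPM, and it also raised the TM5614 mean from 700 to 759 CPM. With that correction the means were 469 ± 144 and 759 ± 209 CPM and the log2 fold change was 0.70 (adjusted p = 0.0707 by edgeR). Without Chow replicate 2, and with no correction, it was 0.49 (adjusted p = 0.212 by edgeR). Leaving out any other 1 library gave from 0.15 (without TM5614 replicate 4, adjusted p = 0.782 by edgeR) to 0.45 (without Chow replicate 4, adjusted p = 0.382 by edgeR).

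*Igfbp3*, which carries most plasma IGF-I in a ternary complex, was the least abundant binding protein of the 4. Chow replicates 1 to 5 gave 9.82, 9.45, 13.2, 15.5 and 14.8 CPM, and TM5614 replicates 1 to 5 gave 13.6, 25.8, 11.8, 12.1 and 14.5 CPM. The ranges overlapped, and TM5614 replicate 2 stood off from all others. The means were 12.6 ± 2.8 and 15.6 ± 5.83 CPM, and the log2 fold change was 0.31 (SE 0.23, 95% interval -0.20 to 0.82, adjusted p = 0.471 by edgeR). TM5614 replicate 2 is the library with 3890 CPM of skeletal muscle markers, and *Igfbp5*, another member of the family, was also highest there, at 89.9 CPM against 5.32 to 50.1 CPM in the other 9. Without it, the log2 fold change of *Igfbp3* was 0.05 (adjusted p = 0.885 by edgeR).

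*Igfbp4*, the most abundant of the 4 (chr11:99041244-99054392, plus strand), was lower in every TM5614 library than in any Chow library. Chow replicates 1 to 5 were at 1860, 2730, 2040, 2080 and 1970 CPM, and TM5614 replicates 1 to 5 at 1770, 1600, 1420, 1540 and 1740 CPM. The narrowest gap lay between Chow replicate 1 and TM5614 replicate 1. The means were 2140 ± 345 and 1610 ± 143 CPM, a fold of 0.755 (95% interval 0.628 to 0.909), and the log2 fold change was -0.40 (SE 0.12). It missed the threshold with edgeR (adjusted p = 0.0935) and passed with DESeq2 (-0.41, adjusted p = 0.0193), with limma-voom (-0.31, adjusted p = 0.0296) and with edgeR when Chow replicate 2, the highest library, was left out (-0.31, adjusted p = 0.0446). Correction for GC content and length gave -0.31 (adjusted p = 0.0545 by edgeR), with that library at 2290 CPM. The direction was kept in all 19 alternatives, from -0.46 to -0.30, and 3 of them gave an adjusted p under 0.05.

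The make-up of the binding protein transcripts followed from these values. Of the summed FPKM of the 4 genes, *Igfbp4* took 69.7, 66.6, 74.5, 56.6 and 73.7% in Chow replicates 1 to 5 and 61.3, 54.9, 51.4, 42.4 and 57.9% in TM5614 replicates 1 to 5. Chow replicate 4 again lay among the TM5614 values, and the other 4 Chow libraries lay above all of them. The share of *Igfbp1* ran from 1.62 to 9.95% in Chow and from 5.1 to 15.6% in TM5614, and that of *Igfbp2* from 21 to 33.1% and from 31.6 to 42.8%. The sum itself covered 1270 to 1960 FPKM in Chow and 1320 to 1740 FPKM in TM5614. The ratio of *Igfbp1* to *Igfbp2* was 0.0512 to 0.301 in Chow and 0.154 to 0.479 in TM5614. Chow replicate 2 set the lowest Chow share of *Igfbp1*, the lowest Chow ratio and the highest Chow sum, which without it were 2.83%, 0.104 and 1750 FPKM. Shares of 1 sum are not independent of each other, and they were not tested.

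**Figure D4:**
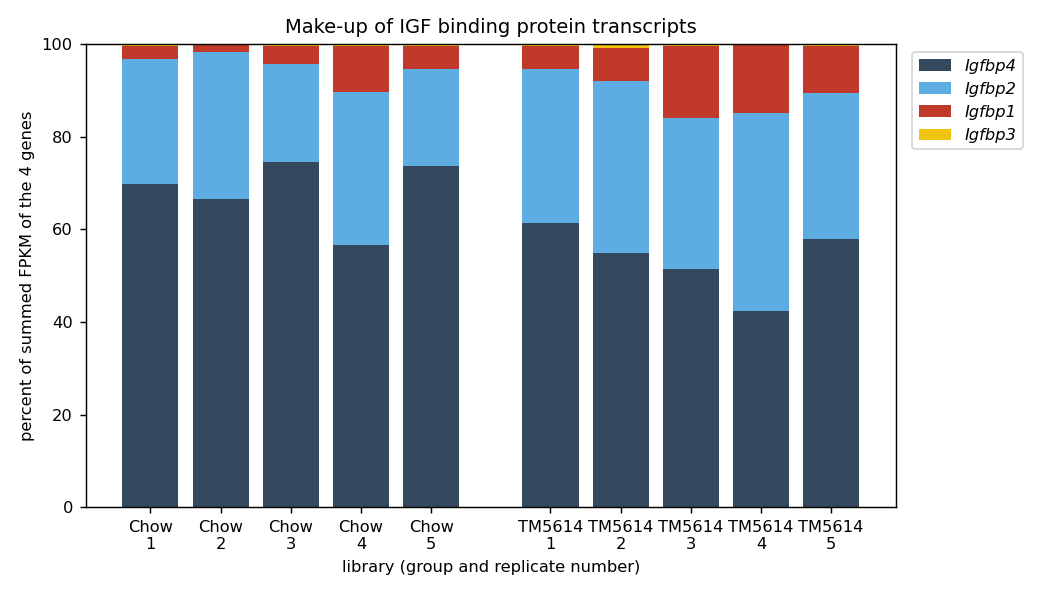
Share of each of the 4 IGF binding protein genes in their summed FPKM (percent), as stacked bars for each library. *Igfbp4* takes the largest share in each library except TM5614 replicate 4, where *Igfbp2* (42.8%) and *Igfbp4* (42.4%) are about level, and the share of *Igfbp1* reaches 15.6% in TM5614 replicate 3.

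Within groups, after the group means were taken out of log2 CPM, 12 of the 45 pairs of these genes had a correlation above 0.6 or below -0.6 over the 10 libraries, and 6 did when Chow replicate 2 was left out. *Gcgr* and *Igfbp4* had the highest correlation (r = 0.899), which was 0.65 over the 9 libraries left without Chow replicate 2. *Insr* and *Gcgr* had r = -0.826, which was 0.151 over those 9 libraries and 0.043 after correction for GC content and length over all 10. *Irs1* and *Igfbp4* had r = -0.831, and -0.462 over the 9 libraries. *Insr* and *Igfbp1* went the other way, from 0.65 to 0.774 without that library and 0.873 with the correction. Points of a correlation share each library's depth and composition, so these values are descriptions. The genes most like *Igfbp1* within groups were *Fuca2* (r = 0.913), *Plk3* (0.899) and *Sdc4* (0.897), and over the 8 libraries left without both that stood apart their values were 0.953, 0.944 and 0.926. For *Igfbp2* they were *Lsm14b* (0.941), *Desi1* (0.93) and *Usb1* (0.927), and for *Irs2* they were *Wsb2* (0.96), *Dapk1* (0.958) and *Cage1* (0.933). After correction for GC content and length *Fuca2* was at 0.306 and *Lsm14b* at 0.602, and the other 7 stayed between 0.829 and 0.953. These genes were picked for the highest r among all genes tested, so high values are in part a product of that choice. The values with libraries left out or corrected reuse the same data and are no independent check.

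The rest of the pathway was read from 7 lists of 109 genes, of which 96 were tested. In the fit of all genes, 2 were called higher and 5 lower in TM5614, against 1.73% and 2.77% of all genes tested. The median log2 fold change of the 96 was 0.01, equal to that of all genes tested. For the counts below, 20.4% of all genes tested had an unadjusted p under 0.05 by edgeR. DESeq2 and limma-voom called 8.08% and 12.5% of all genes. In the cascade below the receptor, from *Gab1* and the phosphoinositide 3-kinase subunits to the mTOR complexes, edgeR called 0 of 27 genes. Of these, 3 had an unadjusted p under 0.05, DESeq2 called 1 (*Tsc2*) and limma-voom called 5 (*Gab1*, *Pik3r1*, *Foxo3*, *Tsc2* and *Rheb*). Among brakes on insulin signaling edgeR called 0 of 16, with 5 at an unadjusted p under 0.05, while DESeq2 and limma-voom each called *Ptprf*, *Inppl1* and *Grb7*. The phosphatase gene *Inppl1* was at 23 ± 2.46 CPM in Chow and 31.5 ± 4.55 CPM in TM5614 (adjusted p = 0.0715 by edgeR), and *Grb7*, of the same adaptor family as *Grb14*, at 95.9 ± 15.2 and 67.4 ± 11.2 CPM (adjusted p = 0.0739 by edgeR). The 3 genes of receptor processing and insulin clearance had 0 calls by edgeR, by DESeq2 and by limma-voom, with 1 at an unadjusted p under 0.05. In the glucagon and cyclic AMP arm edgeR called 0 of 21, with 4 at an unadjusted p under 0.05, and DESeq2 and limma-voom each called 1 (*Prkar1a*).

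In the IGF axis edgeR called 1 of 8 tested genes, against 4.50% of all genes in either direction. *Igfals*, whose product is the acid-labile subunit that completes the ternary complex of IGF and IGFBP3, fell in TM5614. Its values were 92.9, 152, 102, 70.8 and 98.3 CPM in Chow replicates 1 to 5 and 75.4, 58, 53.7, 47.4 and 56.9 CPM in TM5614 replicates 1 to 5. The groups overlapped between TM5614 replicate 1 and Chow replicate 4 only. The log2 fold change was -0.83 (SE 0.19, adjusted p = 0.0301 by edgeR), and over the 19 alternatives it ran from -0.94 to -0.62 with 13 calls. Without Chow replicate 2, its highest library, it was -0.66 (adjusted p = 0.0109 by edgeR), and the call was lost on leaving out Chow replicate 3 or 5 or any 1 of TM5614 replicates 2 to 5. The other partners of that complex did not pass: *Igfbp3* as given above, and *Igf1*, which encodes IGF-I, with 854 ± 96.8 CPM in Chow and 723 ± 96 CPM in TM5614 (log2 fold change -0.24, SE 0.12, adjusted p = 0.294 by edgeR).

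Genes with a known transcriptional response to insulin held the other 6 calls. Of 11 genes that insulin lowers, 2 were higher in TM5614, against 1.73% of all genes. *G6pc*, the catalytic subunit of glucose-6-phosphatase, was at 168, 119, 253, 183 and 217 CPM in Chow and at 485, 375, 726, 700 and 566 CPM in TM5614, with no overlap. Its log2 fold change was 1.60 (SE 0.22, adjusted p = 0.00185 by edgeR). *Pdk4*, an inhibitor of pyruvate dehydrogenase, went from 3.94 ± 1.63 to 47.1 ± 55.6 CPM (log2 fold change 3.56, SE 0.69, adjusted p = 0.0122 by edgeR), with 144 CPM in TM5614 replicate 2, the library with muscle transcripts, and 12.6 to 40.3 CPM in the other 4. Without that library the log2 fold change was 2.51 (adjusted p = 0.00611 by edgeR). *Pck1*, the other classical gluconeogenic gene of the list, was at 4600 ± 1410 and 5150 ± 474 CPM and was not called (adjusted p = 0.677 by edgeR). Of 10 tested genes that insulin raises, 4 were lower, against 2.77% of all genes: the regulator *Srebf1* (log2 fold change -1.84), *Fasn* (-1.37), *Scd1* (-1.19) and *Thrsp* (-2.55), with edgeR adjusted p of 0.000402, 0.00391, 0.0162 and 0.00072. For each of the 4 genes no TM5614 library reached the lowest Chow library. At an unadjusted p under 0.05 by edgeR the lists of 11 and 10 genes held 3 and 6, against 20.4% of all genes. DESeq2 called 2 and 5, and limma-voom 3 and 6, against 8.08% and 12.5% of all genes. Among the 11, limma-voom also called *Sesn1*, whose edgeR estimate was -0.24. Estimates ran from -1.17 to 3.56 over the 11, with 8 above 0. Over the 10 they ran from -2.55 to 0.18, with 2 above 0. Both lists were drawn up with earlier results of these libraries known, so their direction is not independent evidence. *Srebf1*, *Fasn* and *Scd1* also answer to signals other than insulin.

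**Figure D5:**
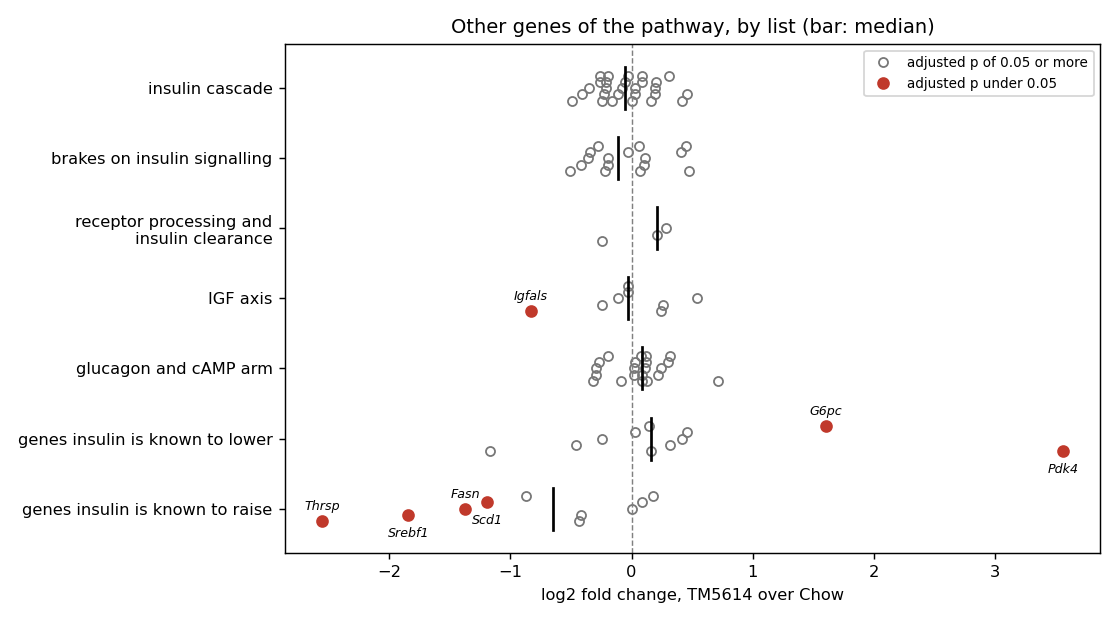
Log2 fold change of TM5614 over Chow for the 96 tested genes of the 7 lists, 1 point per gene, with a black bar at each list's median. Red points are the 7 genes with an edgeR adjusted p under 0.05, which lie in the IGF axis (*Igfals*) and in the lists of genes insulin lowers or raises, and the signaling lists cluster around 0.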

How the data were processed

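Hepatic mRNA libraries of 5 Chow and 5 TM5614 mice, grouped by the sample titles, were analyzed. Per the study's methods, single-end reads were aligned to mm10 with STAR; the submitters' processing notes also name HOMER and DESeq2. The gene annotation and use of strand are not given in the sources used here. Raw counts per gene symbol (whole numbers) and FPKM were deposited by the authors. Counts divided by FPKM gave 1 divisor per library, equal to a DESeq2 size factor up to a constant. The authors' regularized log values and their comparison table (fold changes and p-values) were not used.

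Columns were matched by mouse number. Counts were filtered with filterByExpr, scaled with TMM and compared in R 4.3.3 by the two-sided quasi-likelihood test of edgeR 4.0.16 (glmQLFit, then glmQLFTest) without a block. Benjamini-Hochberg adjustment covered all 11092 genes tested, with a threshold of 0.05. The SE of a log2 fold change was derived from its F statistic, and 95% intervals from the SE. P-values set the group difference against the spread between mice. CPM are TMM-scaled. GC content and length came from the longest GENCODE M21 transcript for 96.7% of genes tested, fitted per library with splines of 5 degrees of freedom. Log2 CPM had a prior count of 2. Alternatives were DESeq2 1.42.0, limma-voom 3.58.1, RLE factors, library totals, 2 other filters, a replicate block, the GC and length correction and libraries left out. No pair of libraries within a group agreed within sampling noise. Named genes were the members, list genes past the threshold and the 3 genes most like *Igfbp1*, *Igfbp2* and *Irs2*. A few list genes were chosen after their values were seen (*Inppl1*, *Grb7*, *Igf1*, *Igfbp5*, *Pck1*, the markers and part of those called by other tools). Leaving libraries out of the within-group correlations was chosen after seeing the data. The members and lists were chosen with earlier results of these data known. Promoters came from RefSeq, with windows for 9 of 10 members. The result of 1 list gene is not reported here.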

Additional observations from a re-analysis of the deposited data

Results flagged for a closer look

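Among 48 groups of 5 values examined with Dixon's criterion, 7 held a library far from the other 4. Chance would give about 2.4 if the groups were independent and normally distributed. They were not independent, since *Igfbp3* in TM5614 replicate 2 enters both by its CPM and by its share, so these counts were not compared. In Chow replicate 2, *Gcgr* was at 316 CPM (155 to 192 in the other 4) and *Igfbp4* at 2730 CPM (1860 to 2080). In Chow replicate 4, *Igfbp1* was at 269 CPM (48.8 to 95.4). In TM5614 replicate 4, *Igfbp2* was at 998 CPM (580 to 694). In TM5614 replicate 2, *Igfbp3* was at 25.8 CPM (11.8 to 14.5), its share of the summed binding protein FPKM was 0.752% (0.282 to 0.406%), and *Pdk4* was at 144 CPM (12.6 to 40.3). After correction for GC content and length, *Gcgr* and *Igfbp4* in Chow replicate 2 were at 215 and 2290 CPM, while *Igfbp1* in Chow replicate 4 stayed at 263 CPM and *Igfbp3* in TM5614 replicate 2 at 24.4 CPM. The origin of the *Igfbp1* value of Chow replicate 4 was not tested.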

How the results depend on the processing

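With all libraries, edgeR called 1 of the 10 genes, 7 list genes and 499 genes in all. DESeq2 called 2, 13 and 908, limma-voom with sample quality weights 3, 19 and 1386, and edgeR without both libraries that stood apart 2, 17 and 1230. Without a filter 0 of the 10 genes were called, since *Irs1* was at an adjusted p of 0.072. Leaving out 1 library gave 0 to 2 of the 10 genes, 5 to 17 list genes and 235 to 1031 genes in all, the last count being 1031 with Chow replicate 2 omitted, 293 with Chow replicate 3 omitted and 331, 235 and 259 when TM5614 replicate 1, 3 or 4 was omitted. The log2 fold change of *Insr* (0.00) turned to -0.10 with limma-voom, -0.12 with the GC and length correction and -0.09 without both libraries, and ran from -0.15 to 0.09 on leaving out 1 library. That of *Igfbp3* was -0.04 without both libraries. The causes were not tested. With the replicate number as a block, 2 of the 10 genes (*Irs1* and *Igfbp1*, the latter with a log2 fold change of 1.27 and edgeR adjusted p = 0.0115), 9 list genes and 555 genes were called. The numbers were not taken to pair the mice: deviations of libraries with the same number had correlations of 0.032 to 0.318, and 1 of the 5 numbers had its own partner as the best. *Scd1* lost its call without TM5614 replicate 3 (adjusted p = 0.0561). The directions of the other 8 of the 10 genes were kept under all 19 alternatives. Of the 10 genes, *Irs2* (77 to 140) and *Igfbp3* (81 to 199) had the lowest counts per library. How far this limits their estimates was not tested.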
